A study of Homo sapiens with 15 samples.

Results

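The 10 genes described here, ULK1, ATG13, RB1CC1, BECN1, PIK3C3, ATG9A, ATG2A, WIPI2, ATG5 and ATG7, encode core proteins that start an autophagosome, enlarge its membrane and attach ATG8-family proteins to it. They were chosen by name, and each symbol matched 1 row of the 60107 genes listed for every library. RNA was taken from MIA PaCa-2 cells, an established human pancreatic carcinoma line, in 5 groups of 3 libraries. The groups were the vehicle control and cells given Lys05, BAQ12, BAQ13 or BAQ12O, each at 5 µM, and all were collected at 24 h. The labels name no genetic change in any group, and all groups share the same line.

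Lys05 is a bisaminoquinoline that accumulates in lysosomes and inhibits autophagy. BAQ12 and BAQ13 join the head of Lys05 to a long hydrophobic tail of the kind found in a lysosomal detergent, differ from each other by a single methylene unit and self-assemble into nanoparticles. The sources used here name BAQ12O without describing its structure, so it is treated as a named agent only.

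In autophagy, the ULK complex (the kinase ULK1 with its partners ATG13 and RB1CC1, also called FIP200) responds to nutrient and energy signals and switches on a class III phosphatidylinositol 3-kinase complex built around PIK3C3 and BECN1. The lipid made by PIK3C3 recruits WIPI2, ATG9A brings membrane to the growing phagophore, and ATG2A transfers lipid into it. ATG7 then activates ATG12, which is coupled to ATG5, and the conjugate directs the lipidation of LC3 and its relatives. Many of these proteins are controlled by phosphorylation and protein contacts, which RNA levels do not measure.

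RB1CC1 was the only member called higher than vehicle (adjusted p under 0.05 by limma), with BAQ13, in a call that single libraries decided. Its normalised read count (reads on the gene divided by the size factor of the library) went from 545 ± 29.1 in vehicle to 674 ± 18.1 with BAQ13 (mean ± SD, n = 3 each). ATG2A had the largest log2 difference with BAQ13, from 42.9 ± 14.8 to 80.3 ± 16.7 normalised reads, but its adjusted p of 0.0597 (limma, Benjamini-Hochberg over the 10495 genes tested) missed the threshold of 0.05. In the comparison of BAQ13 with vehicle, 1 of 10 members passed that threshold, where 5.77% of all genes tested did. Without the libraries that stood apart from their groups, BAQ12 replicate 3 and BAQ13 replicate 1, 2 members passed with BAQ13, where 12% of all genes did. With Lys05, BAQ12 and BAQ12O, 0 of 10 members passed, against 0.238%, 0.981% and 1.48% of all genes. In these 3 comparisons 1, 2 and 2 members had an unadjusted p under 0.05 by limma, where 4.98%, 11.8% and 12.8% of all genes did, and edgeR and DESeq2 each also called 0.

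The 15 libraries held 1586566 to 2500551 reads on genes, and 14815 to 15718 genes had a read. BAQ12 replicate 3 stood apart from its group, with a chi-square per degree of freedom of 12.1 and 10.2 against its mates, and BAQ13 replicate 1 did so less (3.1 and 5.6), where the other pairs of replicates had 1.0 to 1.7. Deviations of these 2 libraries from their group means correlated at r = 0.573 across the 10495 genes tested (a description, since genes are not independent), so values that leaving them out moved most are also given without them. The keratin genes KRT8, KRT18 and KRT19 were read in every library with VIM, whereas the epithelial genes KRT7, EPCAM and CDH1 were at or near 0. Of the genes of other cell types, CD3E, PECAM1, DCN and LUM had 0 reads in all 15 libraries. The leukocyte genes PTPRC and CD14 had up to 5.72 and from 1.06 to 9.65 normalised reads, the fibroblast gene COL1A1 had up to 2.16, and the endothelial gene CDH5 had 23.9 to 75.3. The labels do not say whether replicates came from separate cultures, so p-values measure the spread between these libraries, which may be technical.

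**Figure D1:**
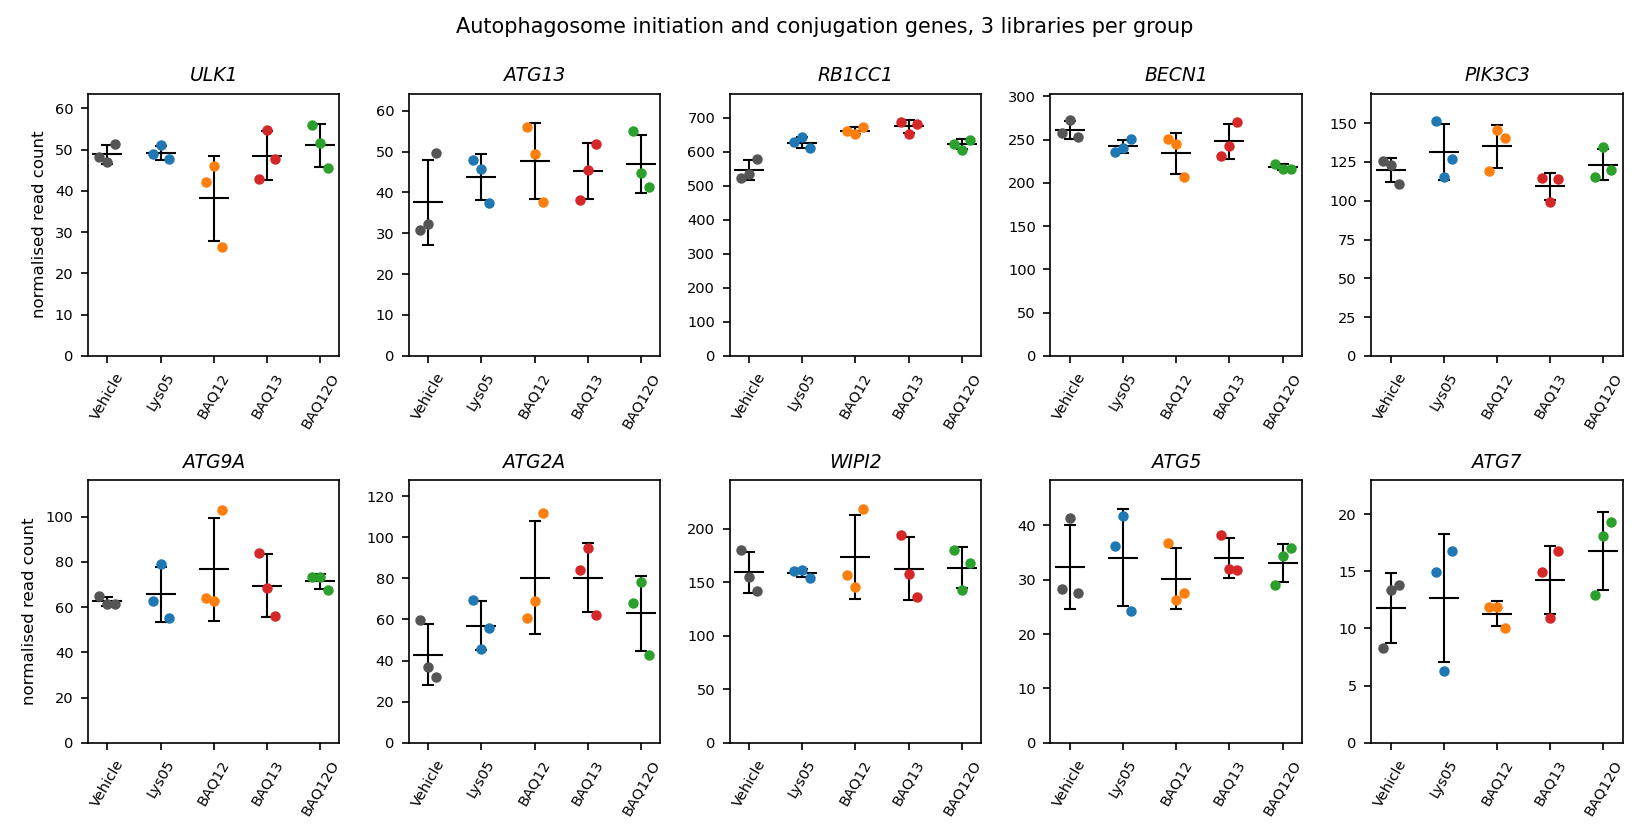
Normalised read count (y axis, from 0) of each of the 10 genes in each library of the 5 groups (x axis), where points are libraries and bars the mean ± SD of 3. All 12 RB1CC1 values under an agent lie above the 3 vehicle values, whereas the groups of WIPI2, ATG5 and ATG13 overlap throughout.

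The kinase complex that starts the process was examined first. ULK1, its catalytic subunit, lies at chr12:131894651-131923167 on the plus strand (GRCh38, GENCODE 29, as for all gene positions here). Its normalised read counts in replicates 1, 2 and 3 were 48.2, 46.9 and 51.4 in vehicle and 49.0, 51.0 and 47.6 with Lys05. They were 42.2, 45.9 and 26.4 with BAQ12, 42.9, 54.7 and 47.8 with BAQ13, and 56.1, 51.5 and 45.5 with BAQ12O. The BAQ12 libraries all lay below the vehicle libraries, which held for 7.61% of all genes. The lowest of the 15 values came from BAQ12 replicate 3. The difference in log2(normalised read count + 1) between BAQ12 and vehicle was -0.38 (SE 0.18, adjusted p = 0.43 by limma). Without BAQ12 replicate 3 the difference was -0.15 and the adjusted p 0.89, and the other agents differed from vehicle by -0.016 to 0.058.

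ATG13, the adaptor that holds the complex together (chr11:46617527-46674818, plus strand), had 30.7, 32.4 and 49.6 normalised reads in vehicle. With the agents its values ran from 37.3 to 55.9, so every group overlapped the vehicle group through vehicle replicate 3. The 4 log2 differences were all above 0, from 0.24 with Lys05 to 0.35 with BAQ12, with adjusted p from 0.49 to 1.00 by limma.

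RB1CC1, the large scaffold of the complex, lies at chr8:52622456-52745843 on the minus strand and was the most deeply read member, with 461 to 814 reads per library. Its normalised read counts were 523.1, 534.9 and 578.3 in vehicle. They were 627.2, 642.5 and 609.6 with Lys05, 661.2, 651.1 and 673.3 with BAQ12, 686.8, 653.5 and 682.2 with BAQ13, and 622.0, 606.4 and 635.6 with BAQ12O. All 12 treated libraries were therefore above all 3 vehicle libraries. Groups did not overlap in this direction for 8.24%, 7.75%, 14.5% and 12.5% of all genes with Lys05, BAQ12, BAQ13 and BAQ12O, and these 4 comparisons share their 3 vehicle libraries.

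The increase of RB1CC1 with BAQ13 was 0.31 on the log2 scale (SE 0.069, 95% interval 0.16 to 0.45), or 1.24-fold, with an adjusted p of 0.0119 by limma, 0.0143 by edgeR and 0.0085 by DESeq2. The adjusted p was 0.0020 without BAQ12 replicate 3 and 0.0026 without both libraries that stood apart. It moved to 0.059 without vehicle replicate 1, to 0.059 without vehicle replicate 2 and to 0.051 without BAQ13 replicate 1, so the call depends on each of these libraries while the log2 difference stayed at 0.28, 0.29 and 0.29. The log2 differences with the other agents were 0.28 for BAQ12 (adjusted p = 0.070 by limma), 0.20 for Lys05 (0.70) and 0.19 for BAQ12O (0.22). Without both libraries that stood apart, BAQ12 and BAQ12O passed the threshold too (adjusted p = 0.0238 and 0.0475 by limma), and Lys05 did not (0.15). That fit called 2.12% and 9.28% of all genes with BAQ12 and BAQ12O.

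The order of the RB1CC1 means was vehicle, BAQ12O, Lys05, BAQ12 and BAQ13, from 545 to 674. Among the agents no step in that order passed the test, and BAQ13 exceeded BAQ12 by 0.026 (95% interval -0.12 to 0.17) on the log2 scale. The genes whose 4 log2 differences from vehicle lay nearest to those of RB1CC1 were SMAD2, MFSD8 and DNAJC13, at root-mean-square distances of 0.015, 0.023 and 0.024 over the 4 comparisons. SMAD2 is a transcription factor of TGF-beta signalling, MFSD8 a lysosomal membrane protein and DNAJC13 an endosomal co-chaperone. These genes were picked as the nearest of the 10495 tested, so small distances were certain. The distances lay below the SE of the RB1CC1 differences (0.069), and a link between the genes was not tested.

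The next members belong to the lipid kinase complex. BECN1, the subunit that regulates the kinase (chr17:42810134-42833350, minus strand), had 257.4, 272.5 and 253.4 normalised reads in vehicle. It had 235.3, 240.6 and 250.2 with Lys05, 250.4, 244.8 and 207.3 with BAQ12, and 231.4, 242.4 and 269.9 with BAQ13. With BAQ12O the values were 222.1, 216.4 and 216.5, the narrowest group for this gene. Of the 12 treated values, 11 lay below the lowest vehicle value, the exception being BAQ13 replicate 3. Groups did not overlap in this direction for 7.37%, 7.61% and 13.3% of all genes with Lys05, BAQ12 and BAQ12O.

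BECN1 was lower with BAQ12O by a log2 difference of -0.26 (SE 0.094, 95% interval -0.45 to -0.059), with an adjusted p of 0.23 by limma. Without BAQ12 replicate 3 and BAQ13 replicate 1 the difference was the same and the adjusted p became 0.0367. With Lys05, BAQ12 and BAQ13 the log2 differences were -0.11, -0.16 and -0.077, with adjusted p from 0.49 to 1.00. Without BAQ12 replicate 3 the BAQ12 difference of BECN1 was -0.076, and without BAQ13 replicate 1 its BAQ13 difference was -0.029. The span of BECN1 overlaps those of the protein-coding genes CNTD1 and PSME3 on the opposite strand. The strand setting of the counting is not given in the sources used here. Overlap was read from whole gene spans and not from exons, so whether reads of these genes entered its count is not known. The same holds for ATG13 with HARBI1, ATG5 with PRDM1 and ATG7 with VGLL4 on opposite strands, and ATG9A overlaps AC068946.2 on its own strand.

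PIK3C3, the lipid kinase itself (chr18:41955206-42087830, plus strand), had 125.4, 122.8 and 111.1 normalised reads in vehicle. It had 151.2, 115.6 and 127.0 with Lys05, 119.2, 145.4 and 140.7 with BAQ12, 114.8, 99.3 and 114.0 with BAQ13, and 115.3, 134.4 and 119.9 with BAQ12O. All groups overlapped vehicle, and BAQ13 had the lowest mean. The log2 differences from vehicle ran from -0.13 with BAQ13 to 0.17 with BAQ12, with adjusted p from 0.58 to 1.00 by limma.

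The members that deliver membrane and lipid followed. ATG9A, the transmembrane scramblase carried by vesicles (chr2:219219380-219229717, minus strand), had 64.8, 61.4 and 61.5 normalised reads in vehicle and 73.3, 73.4 and 67.6 with BAQ12O, which did not overlap. Its log2 difference with BAQ12O was 0.19 (95% interval -0.21 to 0.59, adjusted p = 0.74 by limma). Of all genes, 12.5% did not overlap in this direction with that agent. With BAQ12 the first 2 libraries had 64.2 and 62.9 and replicate 3 had 103.0, the highest of the 15, and the log2 difference of ATG9A was 0.25 with that library and 0.023 without it. The values were 84.0, 68.4 and 56.2 with BAQ13, where replicate 1 was the highest, and 62.8, 79.1 and 55.1 with Lys05.

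ATG2A, the lipid transfer protein (chr11:64894546-64917248, minus strand), had 59.8, 36.8 and 32.1 normalised reads in vehicle and 69.2, 45.8 and 56.0 with Lys05. It had 60.5, 68.9 and 111.8 with BAQ12, 84.0, 94.8 and 62.0 with BAQ13, and 67.9, 78.2 and 42.7 with BAQ12O. The BAQ12 and BAQ13 libraries all exceeded the highest vehicle library, although by little in BAQ12 replicate 1 and BAQ13 replicate 3. That was so for 7.75% and 14.5% of all genes with BAQ12 and BAQ13. Replicate 1 was the high one of the vehicle group, and 9 of the 12 treated libraries exceeded it.

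The log2 difference of ATG2A was 0.92 with BAQ13 (SE 0.28, 95% interval 0.34 to 1.497, 1.89-fold), 0.89 with BAQ12 (0.31 to 1.47, adjusted p = 0.19), 0.55 with BAQ12O (-0.031 to 1.13, adjusted p = 0.42) and 0.43 with Lys05 (-0.15 to 1.01, adjusted p = 1.00). The BAQ13 difference passed the threshold by DESeq2 (adjusted p = 0.0481) and not by edgeR (0.0644). By limma it passed without BAQ12 replicate 3 (adjusted p = 0.0043), whose only part in this comparison is in the shared estimate of the spread, and without vehicle replicate 1 (log2 difference 1.18, adjusted p = 0.0296). For BAQ12, leaving out its replicate 3 gave a log2 difference of 0.63 and an adjusted p of 0.34. ATG2A was the only member whose SD exceeded the counting error of its reads in all 5 groups, with a coefficient of variation of 20.6% to 34.5%.

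WIPI2, which binds the lipid made by PIK3C3 and recruits the conjugation machinery (chr7:5190188-5233826, plus strand), had 180.2, 155.2 and 142.3 normalised reads in vehicle. The group means were 159 ± 4.1 with Lys05, 174 ± 39.4 with BAQ12, 163 ± 29.1 with BAQ13 and 164 ± 18.9 with BAQ12O (SD, n = 3), beside 159 ± 19.3 in vehicle. The log2 differences were 0.0022 to 0.11, and all 4 of the 95% intervals lay between -0.32 and 0.43. BAQ12 replicate 3, at 218.6, was the highest of the 15 libraries and BAQ13 replicate 1, at 194.1, was the highest of its group.

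**Figure D2:**
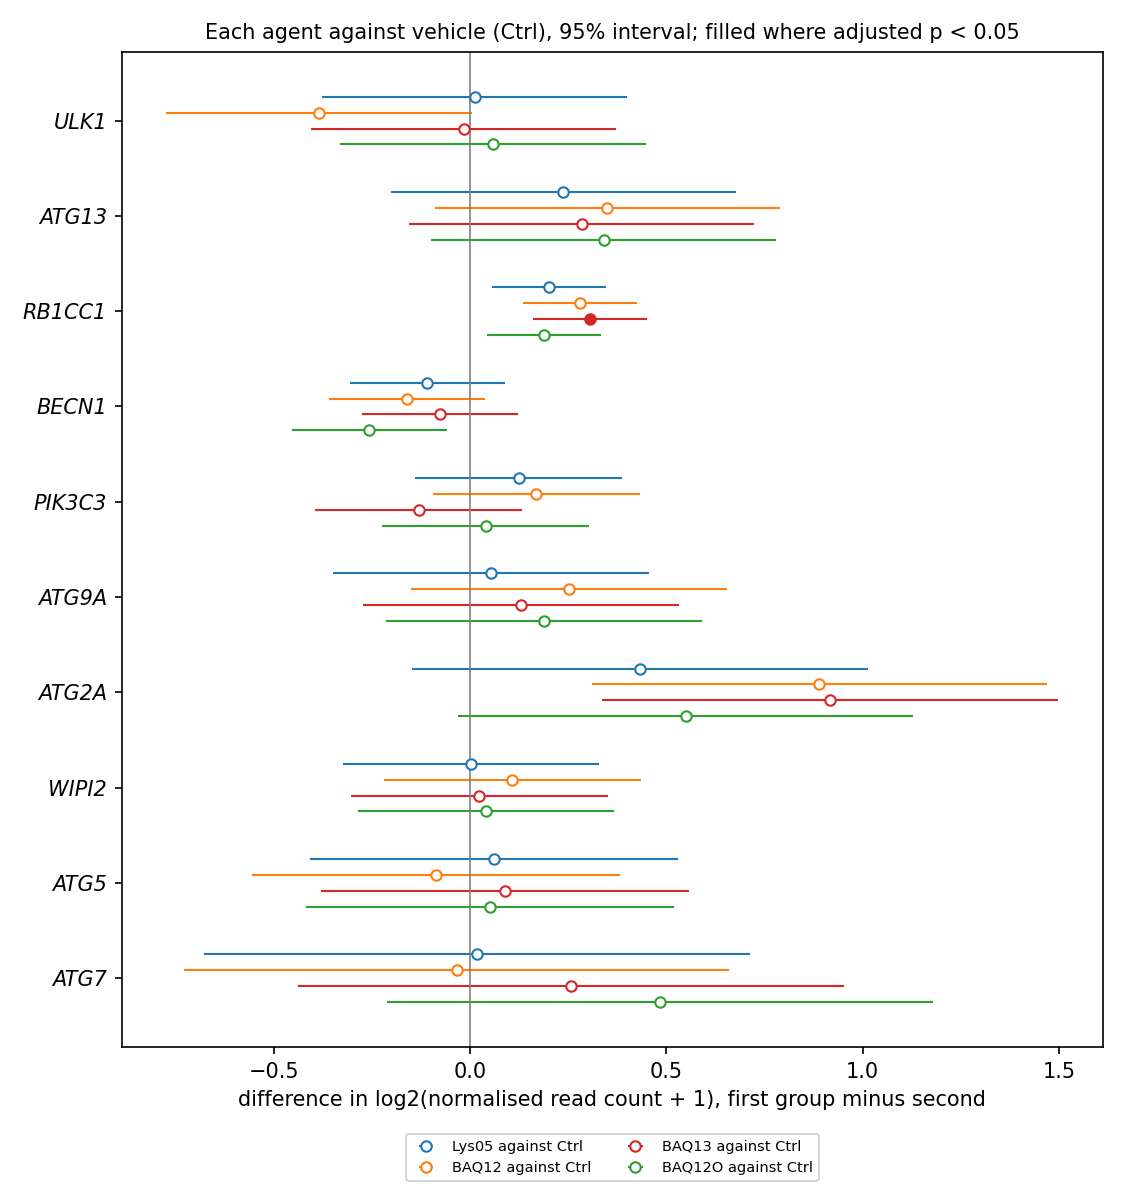
Difference in log2(normalised read count + 1) from vehicle (x axis) for the 10 genes (y axis) and 4 agents (colours), with the 95% interval of limma's fit. The only filled point, past the adjusted threshold, is RB1CC1 with BAQ13 at 0.31, and the ATG2A intervals with BAQ12 and BAQ13 start at 0.31 and 0.34.

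The conjugation members were the least read. ATG5, the partner of ATG12 in the conjugate (chr6:106045423-106325791, minus strand), had 28.2, 41.3 and 27.5 normalised reads in vehicle and values between 24.3 and 41.7 with the agents. Its log2 differences from vehicle ran from -0.086 with BAQ12 to 0.088 with BAQ13, with adjusted p from 0.88 to 1.00 by limma. ATG7, the activating enzyme (chr3:11272309-11557665, plus strand), rested on 6 to 20 reads per library. It had 8.3, 13.4 and 13.8 normalised reads in vehicle and 12.9, 18.1 and 19.3 with BAQ12O, a log2 difference of 0.48 (95% interval -0.21 to 1.18, adjusted p = 0.58). At this depth a difference of that size could not be told from 0, and the intervals of ATG7 had a half-width of 0.69, against 0.15 for RB1CC1.

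As a group, the 10 members had a median log2 difference from vehicle of 0.058 with Lys05, 0.14 with BAQ12, 0.11 with BAQ13 and 0.12 with BAQ12O, where the median of all genes was 0.0018, -0.0014, -0.0042 and -0.0038. Of the 10 members, 9 were above 0 with Lys05, 6 with BAQ12, 7 with BAQ13 and 9 with BAQ12O, and 50.4%, 49.8%, 49.5% and 49.5% of all genes were. These comparisons share their vehicle libraries, and the counts include differences near 0. With Lys05 these were 0.0022 for WIPI2, 0.012 for ULK1 and 0.018 for ATG7, and each changed sign in some other fits. The members were not tested as a set. The BAQ12 median includes BAQ12 replicate 3 and was not recomputed without it. Without that library the BAQ12 difference fell for ATG2A (0.89 to 0.63), ATG9A (0.25 to 0.023), WIPI2 (0.11 to -0.069), PIK3C3 and RB1CC1. It rose for ULK1 (-0.38 to -0.15), ATG13 (0.35 to 0.51), BECN1, ATG5 and ATG7. The libraries of 2, 4, 2 and 3 members did not overlap vehicle with Lys05, BAQ12, BAQ13 and BAQ12O, where 15.6%, 15.4%, 28.9% and 25.8% of all genes did not. Of the 40 intervals against vehicle, 35 lay within a change of 1 on the log2 scale in either direction. In 25 of the 50 combinations of member and group the SD was smaller than the counting error of the reads.

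The agents were then compared with each other at the matched dose and time, in 6 pairs and so 60 tests of members. None passed the adjusted threshold (lowest adjusted p = 0.36 by limma), and edgeR and DESeq2 also called 0, while 3 had an unadjusted p under 0.05. Of all genes, 14.6%, 7.17%, 7.36%, 8.27%, 8.38% and 11.2% had one in the pairs BAQ13 and Lys05, BAQ12 and Lys05, BAQ12O and Lys05, BAQ13 and BAQ12, BAQ12O and BAQ12, and BAQ12O and BAQ13. Of all genes tested, 2.66% were called between BAQ13 and Lys05, 0.162% between BAQ12 and Lys05, 0.248% between BAQ12O and Lys05, 0.562% between BAQ13 and BAQ12, 0.229% between BAQ12O and BAQ12, and 1.39% between BAQ12O and BAQ13. The libraries of 2, 2, 1, 1, 2 and 3 members did not overlap in these pairs, where 23.8%, 11%, 18.4%, 10.8%, 11.1% and 18.7% of all genes did not. The intervals of the difference lay within a log2 change of 1 in 56 of the 60, and the 4 that reached further were those of ATG2A and ATG7.

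Between BAQ13 and BAQ12, which differ by a methylene unit, the 3 PIK3C3 values with BAQ13 (114.8, 99.3 and 114.0) all lay below those with BAQ12 (119.2, 145.4 and 140.7). The log2 difference was -0.30 (95% interval -0.56 to -0.037), with an unadjusted p of 0.028 and an adjusted p of 0.51 by limma. The other 9 members overlapped between these agents. The interval of the difference was -0.12 to 0.17 for RB1CC1, -0.11 to 0.28 for BECN1 and -0.55 to 0.61 for ATG2A, and the data do not separate differences within these bounds from 0. Without BAQ12 replicate 3 the difference of ATG2A went from 0.027 to 0.29 (adjusted p = 0.62 by limma).

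Against Lys05, the 3 PIK3C3 values with BAQ13 also lay below the 3 others, with a log2 difference of -0.26 (95% interval -0.52 to 0.0081, adjusted p = 0.36 by limma). RB1CC1 was higher than with Lys05 in all libraries of BAQ13 (0.11, 95% interval -0.039 to 0.25, adjusted p = 0.53) and of BAQ12 (0.079, -0.066 to 0.22, adjusted p = 0.74). ULK1 was lower with BAQ12 than with Lys05 by -0.40 (unadjusted p = 0.046, adjusted p = 0.69), and without BAQ12 replicate 3 the difference was -0.16 and the adjusted p 1.00.

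BAQ12O differed from BAQ12 by 0.44 in ULK1 (95% interval 0.054 to 0.83, unadjusted p = 0.028, adjusted p = 0.52 by limma), where BAQ12 replicate 3 again held the lowest value and the difference without it was 0.20 (adjusted p = 0.68). The 3 ATG7 values with BAQ12O lay above the 3 with BAQ12 (log2 difference 0.52, 95% interval -0.18 to 1.21, adjusted p = 0.69). Compared with BAQ13, BAQ12O had lower BECN1 in every library (-0.18, -0.38 to 0.018, adjusted p = 0.50), lower RB1CC1 (-0.12, -0.26 to 0.028, adjusted p = 0.57) and higher PIK3C3 (0.17, -0.092 to 0.43, adjusted p = 0.68). BECN1 was also lower with BAQ12O than with Lys05 in every library, by -0.15 (-0.35 to 0.050, adjusted p = 0.79).

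**Figure D3:**
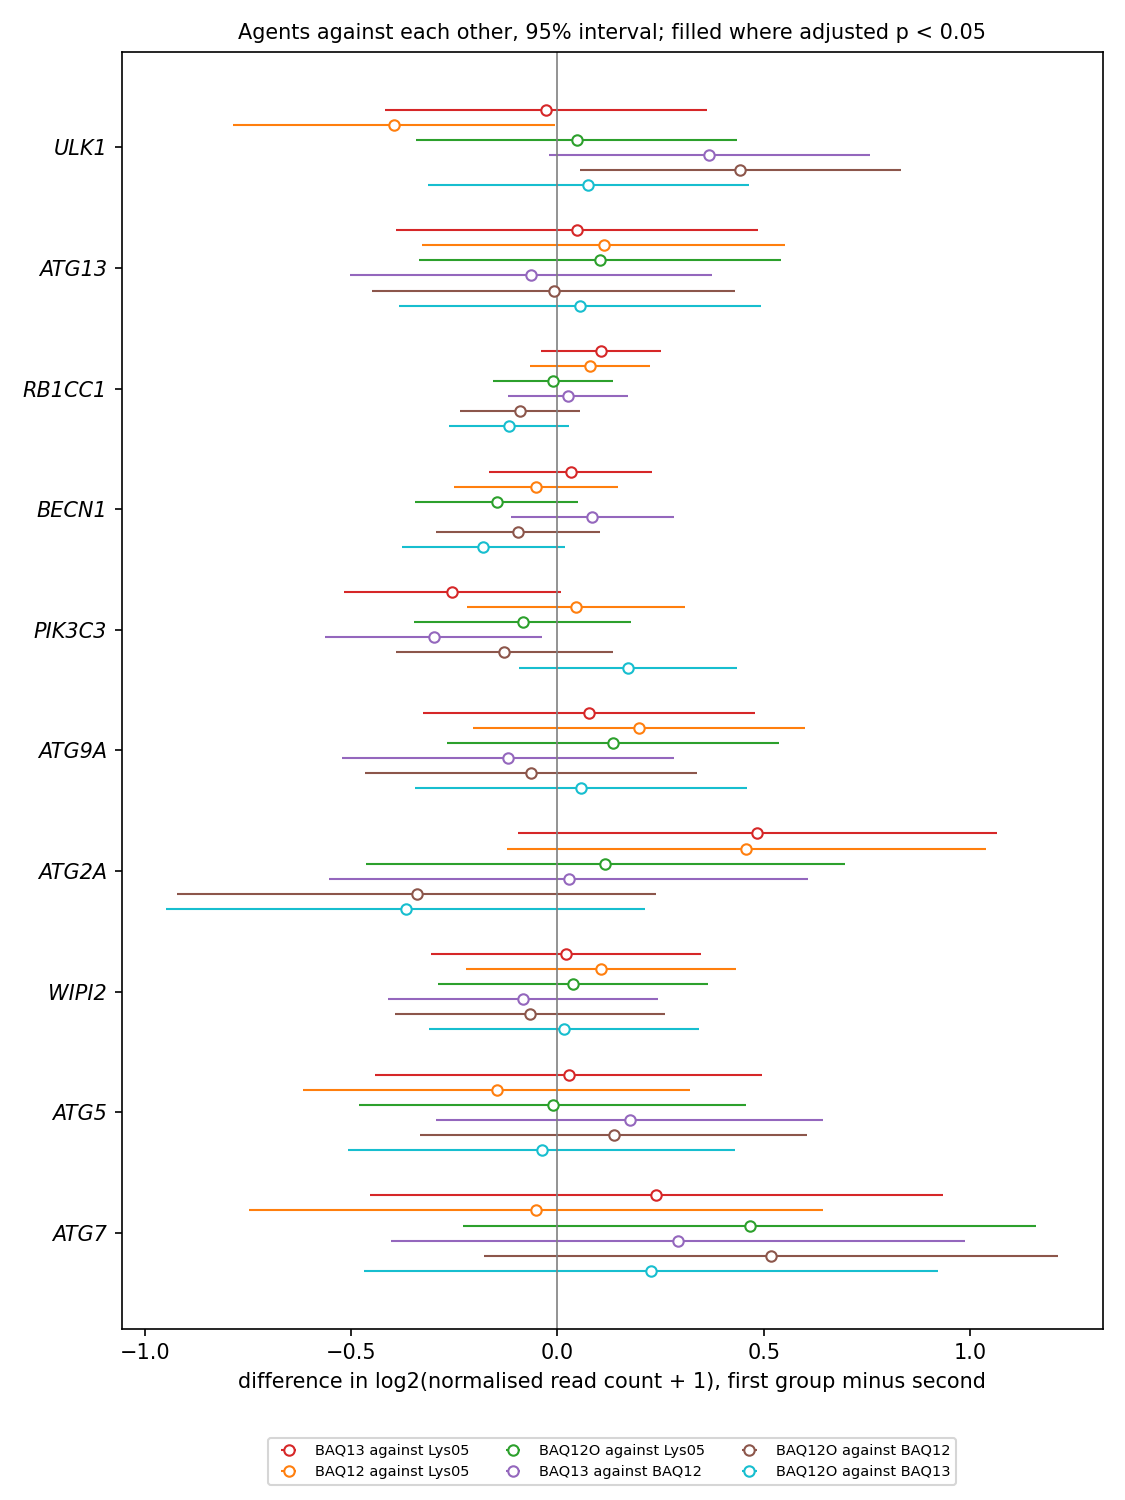
Difference in log2(normalised read count + 1) between each pair of agents (colours) for the 10 genes (y axis), with the 95% interval of limma's fit (x axis). No point is filled, since none passed the adjusted threshold, and the RB1CC1 intervals are the narrowest with a half-width of 0.15.

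The other genes of the pathway were examined beside the members. A list of 37 genes held the remaining subunits of both complexes, the paralogs of ATG9A, ATG2A and WIPI2, the conjugation enzymes and the regulators of initiation, and 34 of them had enough reads to be tested. With BAQ13, 3 rose and 1 fell, with BAQ12O 1 rose, and with Lys05 and BAQ12 0 passed the threshold (limma, with 1 and 5 at an unadjusted p under 0.05, and 0 by edgeR and by DESeq2). These are 4, 1, 0 and 0 of the 34, beside 5.77%, 1.48%, 0.238% and 0.981% of all genes with BAQ13, BAQ12O, Lys05 and BAQ12, and 4.98% and 11.8% of all genes had an unadjusted p under 0.05 with Lys05 and BAQ12. The median log2 difference of the 34 was 0.003 with Lys05, 0.16 with BAQ12, 0.11 with BAQ13 and 0.016 with BAQ12O. AMBRA1 and ATG14 act with the lipid kinase complex, WIPI1 is the paralog of WIPI2, and ATG16L1 binds the ATG12 and ATG5 conjugate.

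WIPI1 had 21.6, 29.03 and 23.9 normalised reads in vehicle and 60.7, 53.8 and 61.2 with BAQ13, groups far from overlap. The log2 difference was 1.21 (95% interval 0.82 to 1.61, adjusted p = 0.00045 by limma), while its paralog WIPI2 differed by 0.024 in the same libraries. It was 46.4, 37.2 and 42.7 with BAQ12O (log2 difference 0.74, adjusted p = 0.059), 28.8, 27.1 and 35.5 with Lys05 and 38.5, 27.2 and 27.6 with BAQ12. BAQ13 exceeded Lys05 by 0.93 (adjusted p = 0.0085) and BAQ12 by 0.91 (adjusted p = 0.030), and it was the one gene of the list called between agents. The call against Lys05 was lost without Lys05 replicate 2 (adjusted p = 0.056). The call against BAQ12 was lost without BAQ12 replicate 2 (0.16), without BAQ13 replicate 1 (0.12), 2 (0.086) or 3 (0.15), without both libraries that stood apart (0.061), with no filter on low reads (0.052) and with only the 6 libraries compared (0.41). WIPI1 overlaps the protein-coding gene ARSG on the opposite strand, so the limit given for BECN1 holds for it as well. Of the genes named further on, it also holds for ATG3 with SLC35A5, ATG12 with AP3S1 and VMP1 with PTRH2.

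ATG14, which directs the lipid kinase to the site of initiation, had 116.2, 83.8 and 90.9 normalised reads in vehicle. It had 123.2, 141.3 and 139.1 with BAQ13 and 135.8, 146.8 and 158.6 with BAQ12O, and all these 6 values were above the vehicle values. Of all genes, 14.5% and 12.5% did not overlap in this direction with BAQ13 and BAQ12O. The log2 differences of ATG14 were 0.48 (adjusted p = 0.037 by limma) and 0.61 (adjusted p = 0.022). The BAQ13 call was lost without vehicle replicate 2 (0.19) or 3 (0.14) and without BAQ13 replicate 1 (0.050), 2 (0.13) or 3 (0.10). It was also lost by DESeq2 (0.070), with no filter on low reads (0.062) and with adjustment over all 4 comparisons (0.081). The BAQ12O call was lost without vehicle replicate 2 (0.15) or 3 (0.12) and without BAQ12O replicate 2 (0.091) or 3 (0.12).

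AMBRA1, a regulator of BECN1 and ULK1, had 90.5, 77.1 and 83.5 normalised reads in vehicle and 159.6, 124.0 and 118.2 with BAQ13 (log2 difference 0.66, adjusted p = 0.018 by limma). All 12 treated libraries exceeded the vehicle libraries for this gene. Groups did not overlap in this direction for 8.24%, 7.75%, 14.5% and 12.5% of all genes with Lys05, BAQ12, BAQ13 and BAQ12O. These comparisons share their vehicle libraries. The 2 highest AMBRA1 values came from BAQ12 replicate 3 (170.8) and BAQ13 replicate 1. ATG16L1 fell from 29.9, 38.0 and 33.1 in vehicle to 18.7, 13.7 and 21.8 with BAQ13 (log2 difference -0.88, adjusted p = 0.021). Both calls were lost without vehicle replicate 2 (adjusted p = 0.091 and 0.10) or 3 (0.065 and 0.070) and without BAQ13 replicate 1 (0.10 and 0.051), and that of ATG16L1 also without BAQ13 replicate 2 (0.11) and by DESeq2 (0.057).

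**Figure D4:**
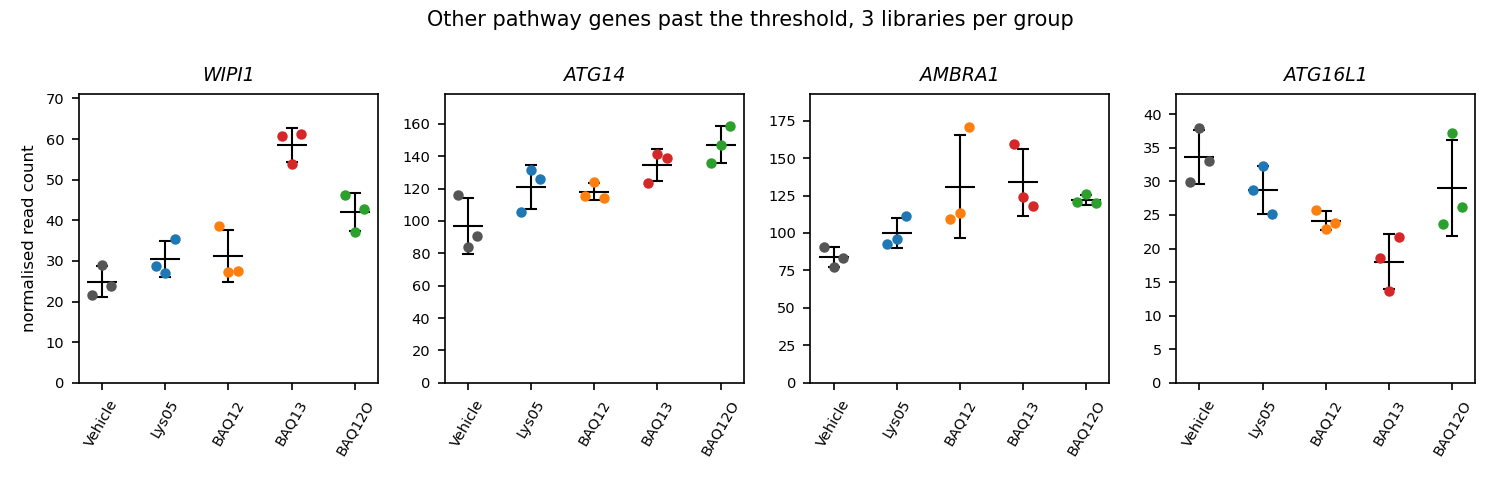
Normalised read count (y axis, from 0) of the 4 other pathway genes that passed the threshold against vehicle, by group (x axis), where points are libraries and bars the mean ± SD of 3. WIPI1 is highest in the 3 BAQ13 libraries (53.8 to 61.2) and ATG16L1 lowest there (13.7 to 21.8).

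Promoters were searched for CACGTG, the palindromic core of the element that TFEB and related factors bind, in RefSeq windows from 250 bases before to 50 bases after a gene start (GRCh38.p14). It was present in 7.3% of the 35116 windows, in 0 of the 11 windows of the 9 members that matched, and in 3 of the 39 windows of the pathway list, those of ATG14, NRBF2 and ATG3. Matches are descriptions and not binding sites. The stretches of ATG14 and NRBF2 that hold the motif are shown with CACGTG in capitals, beside a stretch of ATG2A, the member with the largest difference, to show a window without it. ATG14 is at chr14:55411831-55411890 (minus strand, 60 bases up to the start), NRBF2, another subunit of the kinase complex, at chr10:63133078-63133137 (plus strand, from 250 bases before the start), and ATG2A at chr11:64917260-64917359 (minus strand, from 150 to 51 bases before the start).
ATG14: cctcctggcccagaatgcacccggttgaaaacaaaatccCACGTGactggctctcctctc
NRBF2: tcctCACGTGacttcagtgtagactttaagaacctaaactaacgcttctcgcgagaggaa
ATG2A: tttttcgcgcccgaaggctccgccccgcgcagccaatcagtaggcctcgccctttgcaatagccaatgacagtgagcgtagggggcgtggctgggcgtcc
Of the 3 genes with the motif, ATG14, with it 21 bases before its start, was called higher with BAQ13 and BAQ12O, with the limits given above. The other called pathway genes, WIPI1, AMBRA1 and ATG16L1, had no match in their windows. NRBF2, with the motif 246 bases before its start, had no treated library outside the range of the vehicle libraries. ATG3, which lipidates LC3 and has a copy of the motif on each side of its start, had log2 differences of 0.031, -0.0097, 0.038 and -0.11 with Lys05, BAQ12, BAQ13 and BAQ12O, with adjusted p from 0.71 to 1.00 by limma.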

How the data were processed

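The authors aligned the reads and deposited 1 value per gene and library, a signal equal to the reads on the gene divided by a size factor. The submitters' processing notes name STAR, HTSeq, DESeq2 and GRCh38, with no versions. The labels name a 3′-tag kit and the study's methods a stranded whole-transcript kit, so levels were not compared between genes. In each library 100% of values were whole multiples of the value of 1 read (tolerance 0.001 reads), and the reads so recovered served the count tests, which called 689 genes by edgeR between BAQ13 and vehicle (limma 606).

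Groups and replicate numbers came from the labels. The main test was limma 3.58.1 on log2(value + 1) with a variance trend over all 15 libraries, for 10 comparisons, on 10495 genes kept by filterByExpr (minimum count 10, minimum total 15), with Benjamini-Hochberg adjustment over these genes and a threshold of 0.05. The alternatives were edgeR 4.0.16, DESeq2 1.42.0, other scaling, pseudocounts, filters and adjustments, library weights, a replicate block and leaving out libraries. Correction for GC content, with and without the block, and leaving out both libraries that stood apart were added after the data were seen. On simulated reads with 200 changed genes among 10495 in the BAQ13 comparison, limma recovered 85% (71% of 2-fold changes) with 6 false calls. No separate rate was obtained at 1.24-fold, the change of RB1CC1 with BAQ13. Whether these rates hold for the calls above, with libraries that stood apart, was not tested. A count of 3 reads, taken as the floor, was 2.49 to 4.14 normalised reads, for counting error only.

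The members and lists were chosen with earlier results of these data known. The text names all 10 members, the pathway genes called in a comparison, and the 3 genes nearest to a called member. NRBF2 and ATG3 were also named because their promoters hold the motif, and the genes of the other observations were named after their values were seen. Positions came from GENCODE 29, and promoters from RefSeq (no entry matched RB1CC1). RUBCN and RUBCNL were found under older symbols.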

Additional observations from a re-analysis of the deposited data

How the results depend on the processing

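The number of members called against vehicle moved with the fit. With BAQ12 it went from 0 to 1 with at least 10 reads in every library, without both libraries that stood apart, with GC correction and with adjustment over all 4 comparisons, and to 2 with library weights. With BAQ13 it went from 1 to 2 by DESeq2, with only the 6 libraries compared, with library weights and without both libraries that stood apart, and ran from 0 to 2 when 1 library was left out. With BAQ12O it went from 0 to 1 with library weights and to 2 without both libraries. Between agents it went from 0 to 2 for BAQ13 against Lys05 and to 1 for BAQ13 against BAQ12, with library weights only. With the replicate block the counts of members called were 0, 0, 1 and 0 for Lys05, BAQ12, BAQ13 and BAQ12O. Same-numbered deviations correlated at -0.49 to 0.20, which cannot settle whether the replicate numbers pair samples, and the main test left the block out. The block took the calls of ATG14 with BAQ13 and BAQ12O to adjusted p of 0.064 and 0.051 by limma. It took the call of WIPI1 between BAQ13 and BAQ12 to 0.064.

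Of 1213 recomputed differences of single genes, 1110 kept direction and side of the threshold, 35 lost and 17 gained the call, and 51 changed sign, none of them past the threshold before or after (lowest adjusted p = 0.63 after). WIPI2 with Lys05 became -0.0079 by edgeR, -0.0085 by DESeq2 and -0.0063 with GC correction, with or without the replicate block. That correction also gave -0.018 for ULK1 with Lys05, -0.033 for ULK1 with BAQ12O and -0.024 for WIPI2 with BAQ13. Library weights gave -0.082 for WIPI2 and 0.022 for ATG7 with BAQ12 and 0.097 for ULK1 with BAQ13. Without both libraries these were -0.069, 0.041 and 0.066, and with BAQ13 ATG9A was -0.013 and WIPI2 -0.11. With 1 library left out, differences with Lys05 ran from -0.016 to 0.049 for ULK1, -0.087 to 0.17 for ATG9A, -0.075 to 0.094 for WIPI2, -0.097 to 0.28 for ATG5 and -0.23 to 0.42 for ATG7. With BAQ12 they ran from -0.069 to 0.22 for WIPI2, -0.23 to 0.098 for ATG5 and -0.25 to 0.083 for ATG7. With BAQ13 they ran from -0.11 to 0.066 for ULK1, -0.013 to 0.27 for ATG9A, -0.11 to 0.14 for WIPI2 and -0.012 to 0.27 for ATG5. With BAQ12O they ran from -0.011 to 0.14 for ULK1, -0.024 to 0.086 for PIK3C3, -0.037 to 0.13 for WIPI2 and -0.050 to 0.23 for ATG5. The cause was not tested.

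No scaling moved the median of all genes by over 0.1. The calls with BAQ13 numbered 606 with all libraries and 1441 without BAQ12 replicate 3. ATG7, with 6 to 20 reads per library, is the member that depth limits most.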

Other observations

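Several genes of the pathway list had their extreme values in the 2 libraries that stood apart. How many of all genes did so was not counted. BCL2L1, an antiapoptotic protein that also binds BECN1, had 249.96 normalised reads in BAQ12 replicate 3 and 167.0 in BAQ13 replicate 1, against 70.8 to 113 in the other 13 libraries. ATG12, the protein joined to ATG5, had 283.9 and 272.5 in these libraries. MCL1, of the same family as BCL2L1, had 363.0 and 400.3, the 2 lowest of the 15, and VMP1, a membrane scramblase, had 204.7 and 284.6, likewise the 2 lowest. None of these genes passed the threshold with BAQ12 or BAQ13 against vehicle, and the part of the libraries in their values was not tested.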
